A study of Mus musculus with 8 samples.

Results

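Transcripts of 8 genes that sense sterols, steer lipoprotein uptake or carry cholesterol were followed in liver of 5-week-old mice. The genes were chosen by name (Srebf2, Scap, Insig1, Insig2, Mylip, Stard4, Npc1 and Npc2), and all 8 were found among the 19348 genes of the count table, on 8 rows with no shared identifier. The libraries came from mice with a knock-out of Stab1 (5 libraries) and from wild-type mice (3 libraries). The protein product of Stab1, stabilin-1, is a scavenger receptor found on liver sinusoidal endothelium and on macrophages. The labels give no strain, sex, diet or feeding state and no other allele or agent, and they do not say whether each library is a separate animal.

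Cells hold membrane cholesterol constant through a feedback loop. When sterols are scarce, the escort protein SCAP moves the precursor of the transcription factor SREBP2 from the endoplasmic reticulum to the Golgi, where it is cut and released to turn on genes of cholesterol synthesis and lipoprotein uptake. When sterols are plentiful, INSIG proteins hold SCAP in the endoplasmic reticulum. In liver, much of the incoming cholesterol arrives in lipoproteins, leaves the lysosome through NPC2 and NPC1, and is passed between membranes by soluble carriers such as STARD4. Values below are CPM (reads scaled to a common library size) unless RPKM (the same, divided by gene length) is named.

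Insig1, Stard4, Srebf2 and Scap had lower mean levels in knockout than in wild-type liver, and Insig2 had a higher one. Insig1 averaged 387 ± 92.5 CPM in knockout livers, against 767 ± 357 CPM in wild-type livers (SD, n = 5 and n = 3). Stard4 averaged 52.4 ± 8.12 CPM in knockout livers, against 86.5 ± 9.35 CPM in wild-type livers. Srebf2 averaged 66.0 ± 12.4 CPM in knockout livers, against 98.8 ± 23.9 CPM in wild-type livers. Insig2 lay the other way, at 385 ± 108 CPM in knockout livers, against 258 ± 92.0 CPM in wild-type livers. With all libraries, 0 of the 8 members passed an adjusted p of 0.05 in the edgeR quasi-likelihood test, against 0.227% of the 12338 tested genes (28 genes), and 3 members (Insig1, Srebf2 and Stard4) had an unadjusted p under 0.05, against 13.6% of tested genes. The DESeq2 Wald test called 1 member, Stard4, against 1.11% of genes with an adjusted p.

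The knock-out was visible in every library, with 5 to 16 Stab1 reads per knockout library, against 474 to 594 per wild-type library. Totals were 4.85 to 10.5 M (mega) counted reads per knockout library and 10.1 to 10.8 M per wild-type library. Knockout library 1 had the lowest depth. Its Xist reads numbered 3, where each of the other 7 libraries had at least 4445, and its reads of Ddx3y, a gene of the Y chromosome, numbered 320, where the others had at most 4. By these reads knockout library 1 is male and the other 7 libraries are female. Leaving out knockout library 1 therefore takes out its sex, depth and coverage together. The median coverage of genes at 5 to 20 CPM was 53.4% to 71.5% of gene length in the knockout libraries, lowest in number 1, against 69.0% to 75.0% in the wild-type ones. Values without knockout library 1, or with coverage as a covariate, are given below. The part of these differences in the results was not tested. All knockout libraries but number 3 had lower median coverage than every wild-type library. A fit with coverage as a covariate therefore cannot tell its part from that of genotype. All 8 hepatocyte markers of a fixed list, among them Alb and Hnf4a, were detected.

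The promoters of the regulator Srebf2 and of Insig1, a known target of SREBP2, are shown because both members had lower mean levels in knockout liver and each holds letters of known SREBP partner sites. Of the 8 members, 6 matched the RefSeq promoter table of GRCm38.p6 (Srebf2, Scap, Insig1, Insig2, Mylip and Npc2), and Npc1 and Stard4 did not. Each run covers the 250 bases before the gene start, on the plus strand. Srebf2 lies at chr15:82147019-82147268 and Insig1 at chr5:28071162-28071411. Capitals mark CCAAT (the NF-Y box), GGGCGG (the Sp1 GC box), TCACCCCA (a short form of the sterol regulatory element) and CACGTG (an E-box), read on either strand.
Srebf2: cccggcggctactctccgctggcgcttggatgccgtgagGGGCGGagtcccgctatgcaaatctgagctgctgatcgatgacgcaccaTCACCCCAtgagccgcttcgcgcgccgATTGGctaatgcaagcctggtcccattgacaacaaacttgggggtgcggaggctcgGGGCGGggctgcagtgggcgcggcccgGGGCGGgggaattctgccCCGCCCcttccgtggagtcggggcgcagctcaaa
Insig1: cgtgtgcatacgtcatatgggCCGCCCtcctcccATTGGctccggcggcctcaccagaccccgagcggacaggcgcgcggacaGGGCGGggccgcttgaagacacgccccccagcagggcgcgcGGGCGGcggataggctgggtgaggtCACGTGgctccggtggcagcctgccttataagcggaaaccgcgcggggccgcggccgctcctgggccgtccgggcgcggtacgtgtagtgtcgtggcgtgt

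The Srebf2 promoter held TCACCCCA at bases 162 to 155 before the start and an NF-Y box, on the opposite strand, at bases 135 to 131. It also held 4 GC boxes. The Insig1 promoter held an NF-Y box on the opposite strand at bases 216 to 212, 3 GC boxes and an E-box at bases 101 to 96, and no TCACCCCA. A longer form of the sterol element, TCACNCCAC, was in none of the 9 starts of the 6 matched members. Among all 32851 promoter windows of the table, 1.05% held TCACNCCAC, 1.34% TCACCCCA, 33.8% the NF-Y box, 32.7% the GC box and 6.02% the E-box. TCACCCCA and the E-box were added to the search after these promoters had been read. NF-Y and GC boxes were not particular to the members with lower levels. Both were also found before Mylip (log2 fold change 0.01) and Npc2 (0.10), and, at different starts, before Insig2 (0.58). Scap, which had a lower mean level, held no NF-Y box at any of its starts. TCACCCCA was found in Srebf2 alone of the matched members, and the E-box in Insig1 and Scap. The matches describe letters in a window of fixed length and not binding.

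Srebf2 encodes SREBP2 itself. Knockout libraries 1 to 5 held 83.3, 52.2, 73.6, 62.0 and 58.7 CPM, and wild-type libraries 1 to 3 held 104, 119.6 and 72.7 CPM. The groups overlapped, because wild-type library 3 lay below knockout libraries 1 and 3, while the other wild-type libraries lay above every knockout library. The log2 fold change was -0.58 (SE 0.20, 95% interval -1.02 to -0.14, edgeR adjusted p = 0.332), a level of 0.667 times that of wild type. Without knockout library 1 it was -0.69 (adjusted p = 0.0836). With coverage as a covariate and without knockout library 1, chosen after seeing the data, it was -0.19 (adjusted p = 0.999).

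Scap encodes the escort that senses cholesterol and carries SREBP proteins to the Golgi. Its level was 179, 102, 201, 142 and 173 CPM in knockout libraries 1 to 5 and 241, 208 and 186 CPM in wild-type libraries 1 to 3. All knockout libraries but number 3 lay below the lowest wild-type library. The log2 fold change was -0.41 (SE 0.21, 95% interval -0.88 to 0.06, edgeR adjusted p = 0.398) and did not pass the test. Leaving out single libraries gave -0.50 to -0.28, and the value was -0.03 with coverage as a covariate and without knockout library 1.

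**Figure D1:**
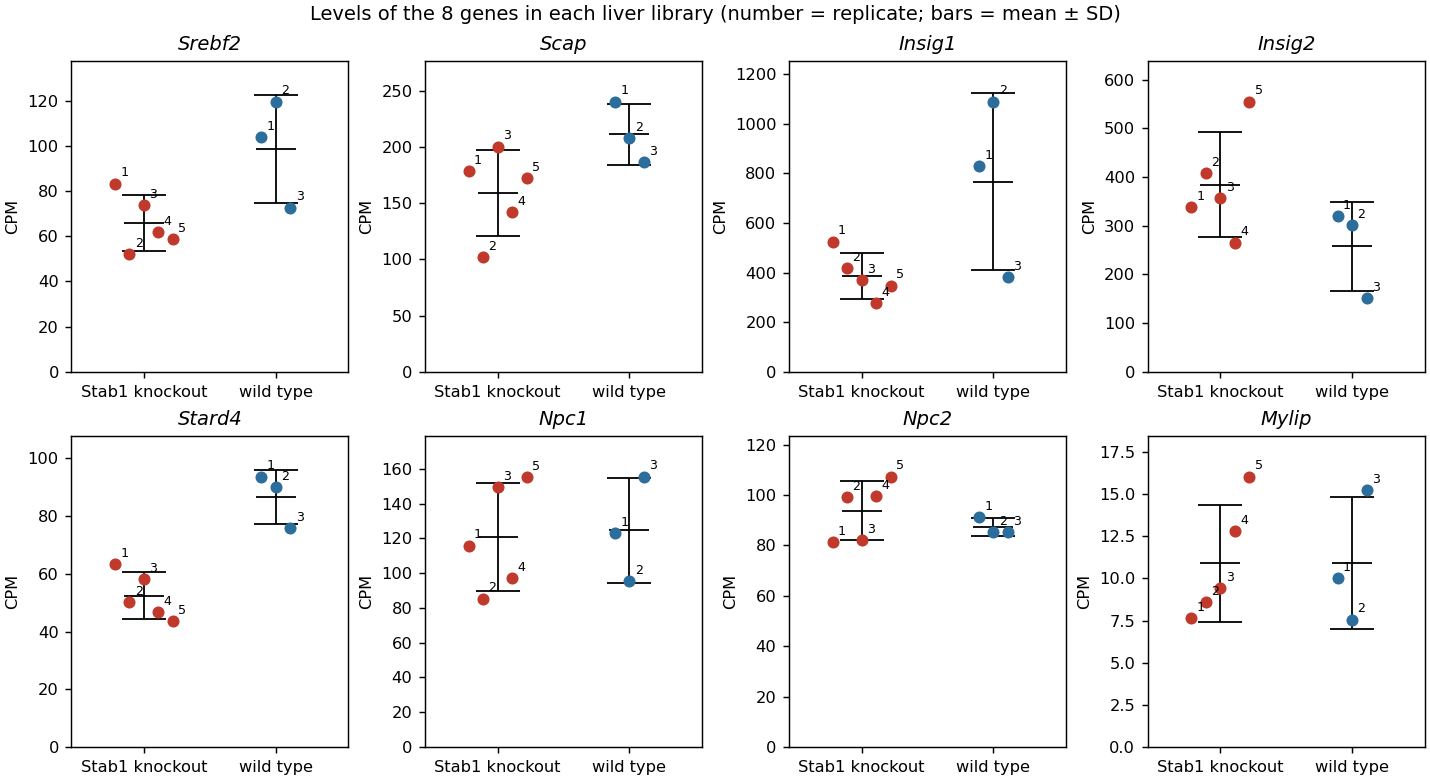
Level of each gene in CPM (y axis, from 0) in the 5 Stab1 knockout and 3 wild-type liver libraries (x axis); points are libraries marked by replicate number, and bars give mean ± SD. Stard4 is the gene whose knockout values, 43.7 to 63.4 CPM, all lie below its wild-type values, 75.9 to 93.7 CPM.

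Insig1 and Insig2 encode the paralogous proteins that retain SCAP when sterols are plentiful. Insig1 is itself switched on by SREBP2, so its transcript is commonly read as a reporter of SREBP activity, whereas mouse liver transcribes Insig2 also from a start that is known to respond to fasting and insulin. Insig1 stood at 525, 419, 369.7, 276 and 348 CPM in knockout libraries 1 to 5 and at 828, 1089 and 383 CPM in wild-type libraries 1 to 3. Wild-type libraries 1 and 2 were far above every knockout library, and wild-type library 3 lay within the knockout range. The Insig1 log2 fold change was -0.99 (SE 0.31, 95% interval -1.66 to -0.31, edgeR adjusted p = 0.325), a level of 0.505 times that of wild type. Without wild-type library 3 it was -1.31 and passed the test (adjusted p = 0.0466), as 0.745% of genes did in that fit. Without wild-type library 2 it was -0.65 (adjusted p = 0.757), and with coverage as a covariate and without knockout library 1 it was -0.62 (adjusted p = 0.999).

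Insig2 was the member with the highest positive change. Its level was 338, 408, 356, 265 and 555 CPM in knockout libraries 1 to 5 and 319.8, 302 and 152 CPM in wild-type libraries 1 to 3. Only knockout library 4 lay inside the wild-type range, and wild-type library 3, the one with low Insig1, also had the lowest Insig2. The log2 fold change was 0.58 (SE 0.29, 95% interval -0.07 to 1.22, edgeR adjusted p = 0.391) and was 0.31 without wild-type library 3. The RefSeq table lists 3 starts of Insig2, and the counts per gene do not tell them apart.

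The ratio of the paralogues did not overlap between the genotypes, although the level of each gene did. Per gene length, Insig1 over Insig2 (a ratio of RPKM) was 1.58, 1.04, 1.05, 1.06 and 0.637 in knockout libraries 1 to 5 and 2.63, 3.67 and 2.56 in wild-type libraries 1 to 3. Every knockout ratio was below every wild-type ratio, wild-type library 3 included. The log2 ratio of CPM averaged 0.02 ± 0.46 in the knockout libraries, against 1.52 ± 0.29 in the wild-type ones (SD, n = 5 and n = 3), a difference of -1.50. The exact two-sided permutation test over the 56 ways of dividing the libraries gave p = 0.0179, the smallest it allows. Adjusted over the 3 ratios tested it was 0.0536. A single ratio at the smallest p cannot pass 0.05 after this adjustment, so the adjusted value does not decide whether the ratio differs. Leaving out single libraries gave differences of -1.65 to -1.32, with -1.65 for knockout library 1.

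**Figure D2:**
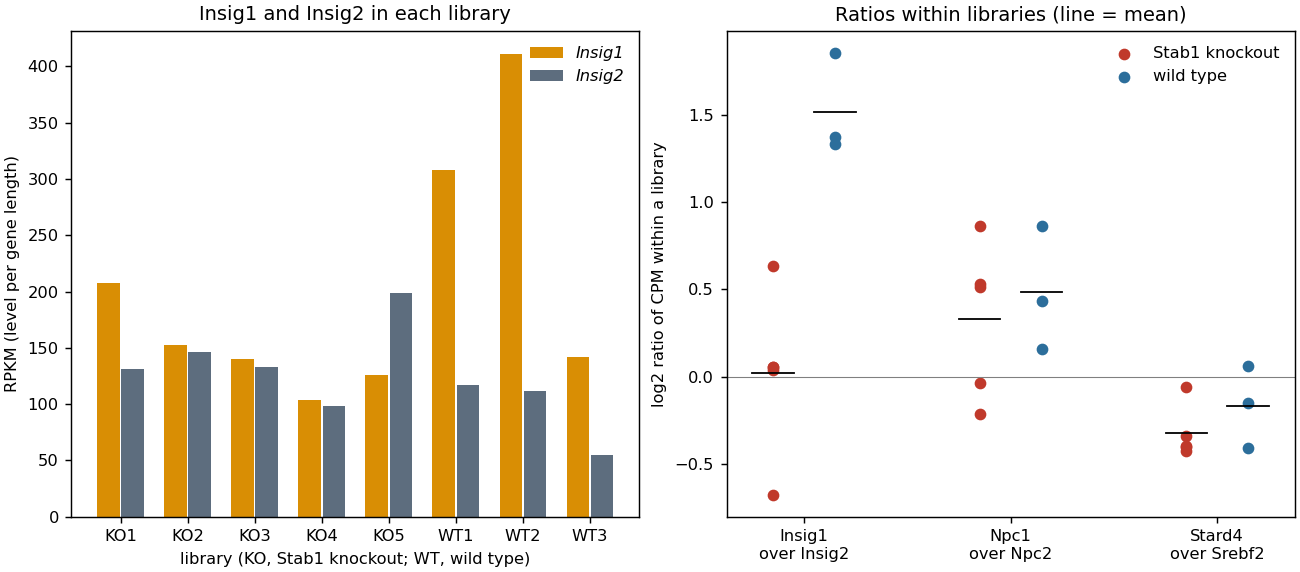
Left, RPKM of Insig1 and Insig2 (y axis) in each library (x axis). Right, log2 ratio of CPM within a library (y axis) for 3 pairs of genes, with knockout libraries left of wild-type libraries and lines at the means; for Insig1 over Insig2 the knockout libraries reach at most 0.63 and the wild-type libraries start at 1.33.

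Stard4 encodes a soluble sterol carrier of the START family that moves cholesterol between membranes and is a known SREBP2 target. Knockout libraries 1 to 5 held 63.4, 50.2, 58.1, 46.8 and 43.7 CPM, and wild-type libraries 1 to 3 held 93.7, 89.9 and 75.9 CPM. The groups did not overlap, and this held for 1 of the 8 members. Among tested genes, 3.61% had all knockout libraries below all wild-type libraries and 3.04% had them all above. With knockout library 1 left out it again held for Stard4 alone among the members, against 8.82% of tested genes with the remaining knockout libraries all below. The log2 fold change was -0.72 (SE 0.15, 95% interval -1.07 to -0.38, edgeR adjusted p = 0.176), a level of 0.605 times that of wild type. Without knockout library 1 Stard4 fell, with a log2 fold change of -0.81 (adjusted p = 0.0379), the single member called in that fit, where 0.928% of 12283 genes were called. In the DESeq2 Wald test with all libraries it also fell (-0.73, DESeq2 adjusted p = 0.00514). The call was not made with coverage as a covariate (-0.77, SE 0.23, edgeR adjusted p = 0.649) or with coverage and without knockout library 1 (-0.54, adjusted p = 0.668). Nor was it made with the replicate number as a block (-0.60, adjusted p = 0.970). The block fit takes the genotype difference from numbers 1 to 3 alone, because numbers 4 and 5 have no wild-type library. Those coverage fits called 0 of the 8 members, against 0.105% of genes with all libraries and 0.122% without knockout library 1.

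The ratio of Stard4 to Srebf2 overlapped between the genotypes. The log2 ratio was -0.32 ± 0.15 in the knockout libraries, against -0.17 ± 0.24 in the wild-type ones (SD, n = 5 and n = 3). The difference of -0.16 gave p = 0.357 in the exact two-sided permutation test, or 0.536 adjusted over 3 ratios. With coverage as a covariate and without knockout library 1 the log2 fold changes were -0.54 for Stard4 and -0.19 for Srebf2. With knockout library 1 left out, DESeq2 (a pairing of choices added once the data had been seen) called 3 of the 8 members lower: Stard4 (-0.80, DESeq2 adjusted p = 2.47e-04), Insig1 (-1.11, 0.00681) and Srebf2 (-0.68, 0.0223). That fit called 8.83% of genes with an adjusted p, and the edgeR fit with coverage as a covariate and without the same library called none of the 3.

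**Figure D3:**
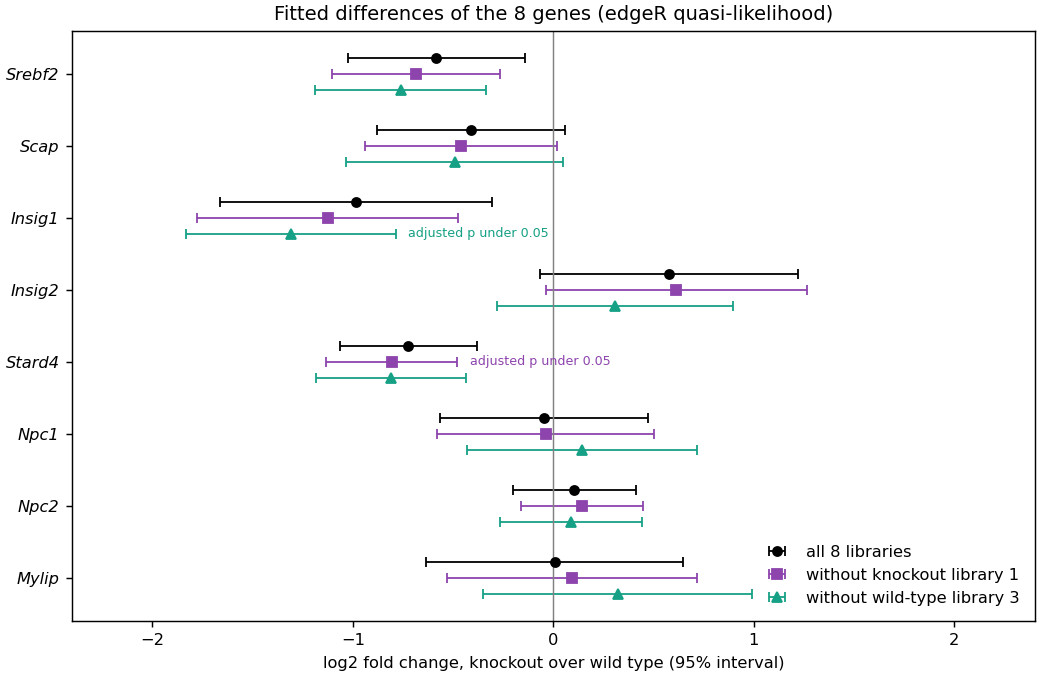
Log2 fold change of knockout over wild type (x axis) with its 95% interval for each gene (y axis) in 3 edgeR fits: all 8 libraries, without knockout library 1 and without wild-type library 3. Stard4 passed an adjusted p of 0.05 without knockout library 1 (-0.81) and Insig1 without wild-type library 3 (-1.31).

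Npc1 and Npc2 encode the membrane and the soluble protein that hand cholesterol out of the lysosome, and loss of either causes Niemann-Pick disease type C. Npc1 stood at 116, 85.4, 149, 97.1 and 155 CPM in knockout libraries 1 to 5 and at 123, 95.3 and 155 CPM in wild-type libraries 1 to 3. The ranges lay over each other, with a log2 fold change of -0.05 (SE 0.23, 95% interval -0.57 to 0.47, edgeR adjusted p = 0.933). Npc2 stood at 81.2, 99.0, 82.0, 99.4 and 107 CPM in knockout libraries 1 to 5 and at 91.2, 85.2 and 85.3 CPM in wild-type libraries 1 to 3. Knockout libraries lay on both sides of the narrow wild-type range, and the log2 fold change was 0.10 (SE 0.14, 95% interval -0.20 to 0.41, edgeR adjusted p = 0.721). The log2 ratio of Npc1 over Npc2 was 0.33 ± 0.44 in the knockout libraries, against 0.49 ± 0.35 in the wild-type ones (SD, n = 5 and n = 3; exact two-sided permutation p = 0.625, also after adjustment over 3 ratios).

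Reads of Npc2 covered a smaller part of the length counted for it than in most like genes. On average 66.7% of its 3278 bases were covered, whereas 188 tested genes of similar length and read number had a median of 95.7%, and 11 of them were covered less. Its RPKM is therefore low for the bases that carry reads. Npc1 showed no such gap, at 94.4% against a median of 94.9% in 97 similar genes. Insig2 had a smaller gap, at 92.8% against a median of 98.5% in 58 similar genes, 7 of them covered less. The limit on RPKM therefore also applies to Insig2 and to the RPKM ratio of Insig1 over Insig2.

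Mylip encodes an E3 ubiquitin ligase, also called IDOL, that marks lipoprotein receptors for degradation and is induced by oxysterol-activated LXR receptors. It was the scarcest member, with 39 to 139 reads per knockout library, against 82 to 152 per wild-type library. Its level was 7.63, 8.58, 9.43, 12.8 and 16.04 CPM in knockout libraries 1 to 5 and 10.01, 7.56 and 15.2 CPM in wild-type libraries 1 to 3. The groups overlapped over almost their whole range, and the log2 fold change was 0.01 (SE 0.29, 95% interval -0.64 to 0.65, edgeR adjusted p = 0.995). The interval takes in the log2 fold change measured for Srebf2, so a change of that size is not excluded here.

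Per gene length the INSIG transcripts were the most abundant members in both genotypes. In knockout liver Insig1 and Insig2 stood at 146 ± 38.9 and 141 ± 36.4 RPKM (SD, n = 5), levels that do not differ beyond their spread. They were followed by Scap at 37.1 ± 9.48, Npc2 at 28.6 ± 2.76, Npc1 at 23.2 ± 5.90, Stard4 at 17.7 ± 3.32, Srebf2 at 14.5 ± 3.25 and Mylip at 3.64 ± 1.09 RPKM. In wild-type liver the order was Insig1 at 287 ± 136, Insig2 at 94.8 ± 34.3, Scap at 48.8 ± 6.41, Stard4 at 28.8 ± 3.30, Npc2 at 26.5 ± 1.03, Npc1 at 23.8 ± 5.51, Srebf2 at 21.5 ± 5.40 and Mylip at 3.64 ± 1.27 RPKM (SD, n = 3). In wild-type liver the mean ± SD ranges of neighbours from Stard4 down to Srebf2 overlapped, and in knockout liver those of Scap, Npc2, Npc1, Stard4 and Srebf2 overlapped from each to the next.

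From library to library, Srebf2 varied with the enzymes of cholesterol synthesis, which are known SREBP2 targets. The mean log2 CPM of 20 cholesterol synthesis enzymes was 7.58, 7.02, 7.21, 7.08 and 7.14 in knockout libraries 1 to 5 and 7.94, 8.19 and 7.26 in wild-type libraries 1 to 3. Srebf2 followed this mean with Pearson's r = 0.97 (exact permutation p = 9.92e-05, 7.94e-04 adjusted over the 8 members) and Spearman's rho = 0.95 (exact permutation p = 0.00114, 0.00913 adjusted over the 8 members). Without wild-type libraries 1 and 2, the libraries farthest from the median, r was 0.89 (n = 6, exact permutation p = 0.0111). The relation spans the genotype difference, member and enzymes are counted in the same library, and neither genotype has enough libraries for a value of its own. How many of all tested genes follow the enzymes this closely was not computed. Ccser2, in none of the sterol lists, had r = 0.99 with Srebf2, so an r this high is not particular to sterol genes.

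Insig1 and Stard4 had high values of r over all libraries and lower ones without those wild-type libraries. With single libraries left out, r was 0.91 to 0.99 for Insig1 and 0.81 to 0.95 for Stard4. Leaving out wild-type libraries 1 and 2 together also cuts the range and the number of libraries, so the lower r does not show what the relation rests on. Insig1 had r = 0.96 (exact permutation p = 0.00131, 0.00526 adjusted over 8) and rho = 0.76 (exact permutation p = 0.0368, 0.0735 adjusted), but r = 0.70 without wild-type libraries 1 and 2 (n = 6, exact permutation p = 0.146). Stard4 had r = 0.86 (exact permutation p = 0.00600, 0.0160 adjusted over 8) and rho = 0.86 (exact permutation p = 0.0107, 0.0286 adjusted), but r = 0.60 without them (n = 6, exact permutation p = 0.211). Scap had r = 0.69 (exact permutation p = 0.0506, 0.101 adjusted over 8) and rho = 0.88 (exact permutation p = 0.00724, 0.0286 adjusted), with r = 0.59 without them (n = 6, exact permutation p = 0.218). For Insig2, Mylip, Npc1 and Npc2 no relation passed adjustment, with r from -0.52 for Mylip to -0.11 for Insig2 (adjusted exact permutation p from 0.293 to 0.764) and rho from -0.60 for Npc2 to 0.12 for Npc1 (adjusted exact permutation p from 0.212 to 0.793).

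**Figure D4:**
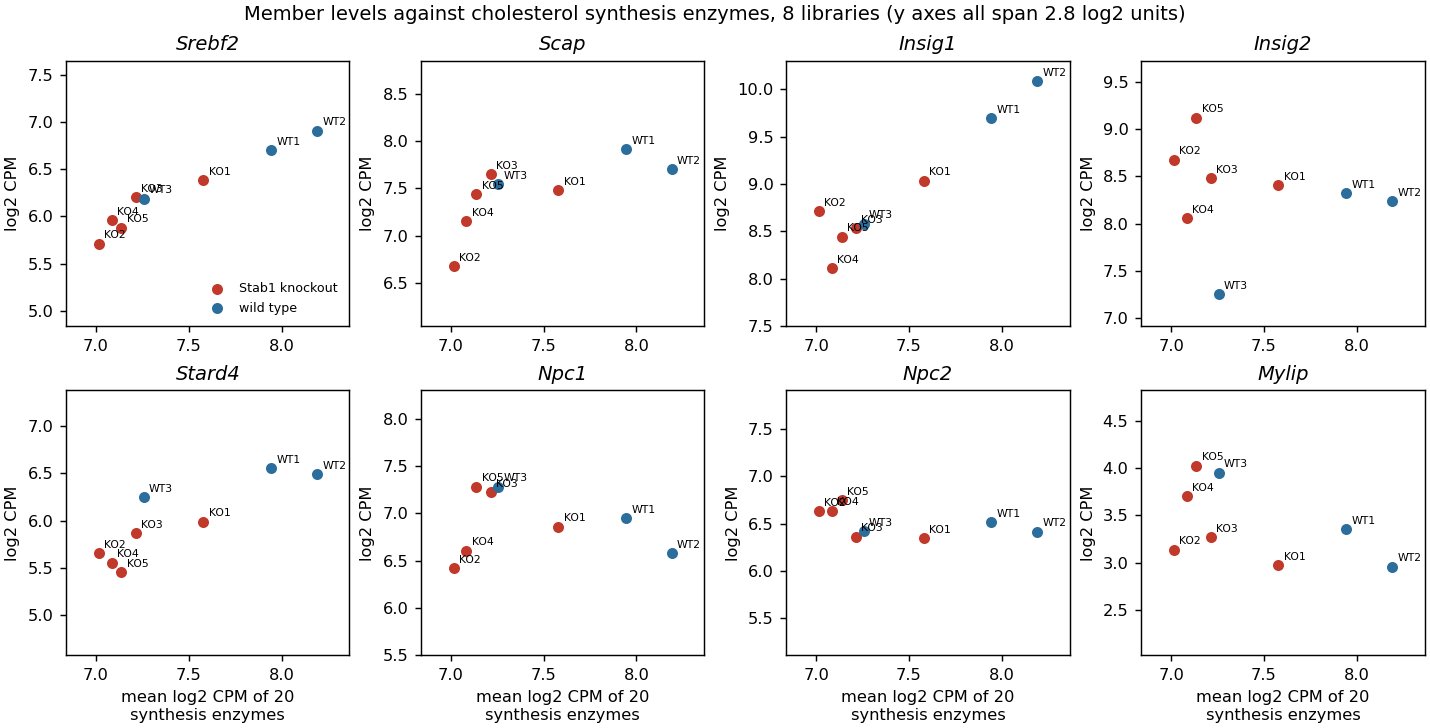
Log2 CPM of each gene (y axes of equal span) against the mean log2 CPM of 20 cholesterol synthesis enzymes (x axis) in 5 knockout and 3 wild-type libraries. Srebf2 follows the enzymes over all libraries (r = 0.97), while Insig2 does not (r = -0.11).

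The genes nearest to the members in pattern over the 8 libraries were in none of the sterol lists. By Pearson's r of log2 CPM, taken as a description among 11487 genes of at least 1 CPM and with no test, the nearest to Srebf2 were Ccser2 (0.99), Dhx8 and Irgq, to Insig1 Prepl (0.98), Trappc10 and Zfp39, and to Scap Setd5 (0.996), Ext2 and Hdac4. The nearest to Stard4 were Sik1 (0.99), Rhobtb1 and Acsl3 (0.97). Acsl3, an acyl-CoA synthetase, was called lower in knockout liver (log2 fold change -1.34, edgeR adjusted p = 0.0120). The nearest to Insig2 was Abcb11 (0.98), the bile salt export pump, followed by Mecom and Mapk1ip1l. Npc1 was nearest to Plekhg3 (0.96), Npc2 to Med14 (0.98) and Mylip to Mtl5 (0.95).

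The log2 fold changes of all 20 tested cholesterol synthesis enzymes were negative. Their median was -0.55, against -0.01 over all tested genes, and 1 of them was called, lower. Mvd, which makes isopentenyl diphosphate, was at 24.0 ± 10.8 CPM in knockout livers, against 62.7 ± 22.1 CPM in wild-type livers (log2 fold change -1.40, edgeR adjusted p = 0.225). Msmo1, which removes methyl groups from sterols, had a log2 fold change of -0.85 (edgeR adjusted p = 0.297). Without knockout library 1, 4 enzymes fell, Mvd (-1.71, adjusted p = 0.00953) and Msmo1 (-1.06, adjusted p = 0.0243) among them, in a fit that called 0.928% of genes. The list median was then -0.72, against -0.02 over all tested genes. With coverage as a covariate, with or without that library, 0 of the enzymes were called.

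The 14 genes of fatty acid synthesis that SREBP1 is known to control also lay below 0 (median log2 fold change -0.54). Here too wild-type library 3, at a list mean of 7.53 log2 CPM, lay within the knockout range of 7.39 to 7.97. With all libraries 0 of the 14 genes were called, while 5 had an unadjusted p under 0.05, against 13.6% of tested genes. Fads2, a desaturase, had the smallest p, at 184 ± 26.8 CPM in knockout livers, against 328 ± 26.5 CPM in wild-type livers (log2 fold change -0.84, edgeR adjusted p = 0.102). Pnpla3, a lipid droplet hydrolase, had -1.41 (adjusted p = 0.301), Acly, which makes cytosolic acetyl-CoA, -1.32 (adjusted p = 0.331) and Gpam, which starts glycerolipid synthesis, -1.12 (adjusted p = 0.333). Without knockout library 1, Fads2 fell (-0.88, adjusted p = 0.0329), in a fit that called 0.928% of genes.

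Genes that process SREBP proteins or degrade INSIG and synthesis enzymes had 15 of 20 negative log2 fold changes and a median of -0.24, and 0 were called. Srebf1, which encodes SREBP1, was at 231 ± 63.7 CPM in knockout livers, against 368 ± 97.5 CPM in wild-type livers (log2 fold change -0.68, edgeR adjusted p = 0.338). Rnf139, a ubiquitin ligase of the endoplasmic reticulum, lay higher in every knockout library than in any wild-type library (0.58, adjusted p = 0.332), as did 3.04% of tested genes. The other genes with the smallest p in this list were Paqr3, a Golgi anchor of the SCAP complex (-0.65, adjusted p = 0.374), and Usp19 (-0.26, adjusted p = 0.391), a deubiquitinase that lay lower in every knockout library, as did 3.61% of tested genes.

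The uptake, oxysterol and carrier lists had medians near that of all genes. Of 15 tested lipoprotein receptors and uptake partners, 11 were negative (median -0.09) and 0 were called. Among them were Commd1, an endosomal sorting protein (log2 fold change 0.70, edgeR adjusted p = 0.341), Scarb1, the HDL receptor (0.37, adjusted p = 0.380), and Vldlr, a lipoprotein receptor, at 36.3 ± 21.2 CPM in knockout livers, against 13.6 ± 6.08 CPM in wild-type livers (1.42, adjusted p = 0.399). Vldlr rose without knockout library 1 (1.71, adjusted p = 0.0270), in a fit that called 0.928% of genes. The deubiquitinase gene Usp2 had -1.96 (adjusted p = 0.397). Of 11 tested LXR targets and oxysterol genes, 5 were negative (median 0.03), and 0 were called, with 0 at an unadjusted p under 0.05; Lpcat3, which remodels phospholipids, had -0.32 (adjusted p = 0.477) and Nr1h3, which encodes LXR-alpha, 0.12 (adjusted p = 0.652).

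Of 18 tested genes for sterol transfer and lysosomal export, the list nearest in role to Stard4, Npc1 and Npc2, 7 were negative (median 0.10) and 0 were called. Scp2, a sterol carrier of peroxisomes, was at 3820 ± 795 CPM in knockout livers, against 2669 ± 210 CPM in wild-type livers (log2 fold change 0.52, edgeR adjusted p = 0.333), higher in every knockout library, against 3.04% of tested genes. Gramd1c, of a family of sterol transfer proteins, was lower in every knockout library (-0.35, adjusted p = 0.341), against 3.61% of tested genes. Scarb2, a lysosomal membrane protein, had -0.38 (adjusted p = 0.343) and Lamp2, another, 0.38 (adjusted p = 0.431). The fasting and PPAR-alpha list, fixed because Insig2 responds to fasting, had 7 of 12 negative (median -0.20), with 0 called and 0 at an unadjusted p under 0.05. Its mean varied widely within each genotype. It was 6.43 log2 CPM in knockout library 1 and 8.25 in number 5, and 7.05 in wild-type library 2 and 8.34 in number 3. The part of this spread in the member values was not tested. Fgf21, a fasting hormone of the liver, was at 4.71 ± 3.83 CPM in knockout livers, against 13.1 ± 19.4 CPM in wild-type livers (log2 fold change -1.43, adjusted p = 0.469).

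**Figure D5:**
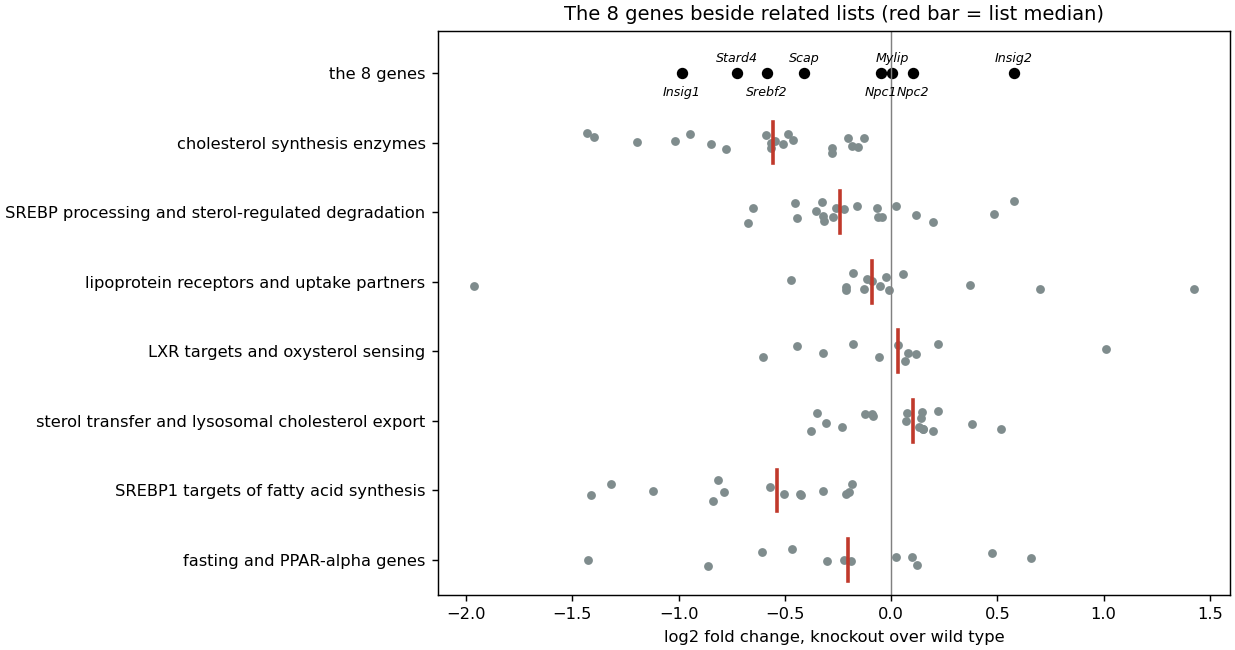
Log2 fold change of knockout over wild type (x axis) for the 8 genes, labelled, and for the tested genes of 7 related lists (y axis), with the vertical position within a list arbitrary and red bars at list medians. The 20 synthesis enzymes and the 14 fatty acid synthesis genes all lie below 0, as do Insig1, Stard4, Srebf2 and Scap, while Insig2 lies at 0.58.

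Markers of other liver cells were read beside these values, and their part in the results was not tested. In bulk tissue, fewer cells of a type and less RNA per cell cannot be told apart. Kupffer cell and macrophage markers, from cells rich in Npc1 and Npc2, had 7 of 10 positive log2 fold changes, and their summed level was 549 to 796 CPM over the knockout libraries, against 463 to 631 CPM over the wild-type ones. Of the 8 hepatocyte markers 5 had negative and 3 had positive log2 fold changes (median -0.15). The hepatocyte markers summed to 57473 to 116890 CPM over the knockout libraries, against 131980 to 143720 CPM over the wild-type ones, a range that Alb, the most abundant, largely sets. All 8 sinusoidal endothelial and all 8 stellate markers were negative, with medians of -0.29 and -0.38. The endothelial list summed to 222 to 252 CPM over the knockout libraries, against 277 to 352 CPM over the wild-type ones. The stellate list summed to 344 to 518 CPM over the knockout libraries, against 549 to 556 CPM over the wild-type ones. Taken singly, 0 of 8 endothelial and 3 of 8 stellate genes had groups that did not overlap. Of all tested genes, 3.61% lay lower in every knockout library than in any wild-type library. All 6 tested erythroid markers were positive (median 0.97), and 1 of them did not overlap between the genotypes, against 3.04% of tested genes with all knockout libraries above. The list summed to 72.8 to 195 CPM over the knockout libraries, against 67.7 to 72.4 CPM over the wild-type ones. Of 5 tested cholangiocyte markers 4 were positive, at 56.7 to 132 CPM over the knockout libraries, against 53.9 to 65.1 CPM over the wild-type ones. No marker gene of these lists was at 0 in all libraries, and 0 were called by edgeR.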

How the data were processed

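Messenger RNA was sequenced from mouse liver in 5 Stab1 knockout and 3 wild-type libraries, grouped by their titles. The authors deposited counts of uniquely mapped reads per gene, per the file headers, and the library totals stand in those headers. The deposited percent of gene length covered and the deposited RPKM values come from the same table; RPKM was used only to compare levels between genes. For aligner, build, annotation and strandedness, nothing was given in the sources used here. A dash was read as 0, and reads were summed for 113 identifiers on 229 rows.

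Counts were tested with edgeR 4.0.16 in R 4.3.3 (filterByExpr, TMM, quasi-likelihood test, Benjamini-Hochberg over 12338 genes, called below an adjusted p of 0.05). SE is the size of a log2 fold change over the square root of F. DESeq2 1.42.0 was an alternative. Ratios and relations used log2 CPM with a prior count of 2 and exact permutation tests. Totals of 4.85 to 10.8 M (mega) reads put 3 reads at 0.278 to 0.619 CPM. Replicate numbers did not pair libraries: deviations of same-numbered libraries correlated at 0.124, -0.148 and -0.150.

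Members and lists were chosen with earlier results of these data known. All members are named, 3 genes nearest to each in pattern, and up to 4 genes per list by smallest p. Some genes that this rule selects are left out and not reported here. No label ties libraries to separate animals, so a p-value here measures spread among libraries, which may be technical. Figures were drawn with matplotlib 3.10.9.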

Additional observations from a re-analysis of the deposited data

Results flagged for a closer look

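The log2 ratio of Stard4 over Srebf2 in knockout library 2 stood apart from the other knockout libraries. It was -0.06, against -0.42 to -0.34 in the other 4, and its gap to the next was 0.776 of the group's range, above the critical value of 0.710 for 5 samples. Chance gives such a gap in about 1 in 20 groups, and 11 quantities were examined.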

How the results depend on the processing

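Stard4, Insig1, Srebf2 and Scap stayed negative and Insig2 positive in all 15 alternative fits, with log2 fold changes of -0.81 to -0.54, -1.31 to -0.62, -0.76 to -0.19, -0.50 to -0.03 and 0.31 to 0.79. Of 120 member values in these fits, 12 changed sign, 6 passed the threshold anew and 102 kept sign and side. The sign changes were those of Npc1, Npc2 and Mylip, whose values lie near 0. Mylip was at -0.0051 with no filter, -0.06 and -0.17 without knockout libraries 4 and 5, -0.05 and -0.21 without wild-type libraries 1 and 2, -0.31 with the replicate block and -0.36 with the coverage covariate and without knockout library 1. Mylip ran from -0.21 to 0.32 and Npc1 from -0.22 to 0.14 with single libraries left out. Npc1 was at 0.06 and 0.02 without knockout libraries 2 and 4 and 0.14 without wild-type library 3. Npc2 was at -0.0028 with the replicate block and -0.010 with the coverage covariate and without knockout library 1. The ratio of Npc1 over Npc2 was 0.036 without wild-type library 3, and ran from -0.32 to 0.036 with single libraries left out.

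Genes called numbered 28 with all libraries, 13 to 114 with single libraries left out (13 and 15 without wild-type libraries 2 and 1, 93 without wild-type library 3 and 114 without knockout library 1), 137 by DESeq2, 1083 by DESeq2 without knockout library 1, 13 with the coverage covariate and 15 with it and without knockout library 1. Members called numbered 0 to 1 with single libraries left out, 1 by DESeq2, 3 by DESeq2 without knockout library 1 and 0 with the coverage covariate, with or without that library. Other pathway genes called numbered 1 with all libraries, 0 to 6 with single libraries left out, 3 by DESeq2, 25 by DESeq2 without knockout library 1 and 0 with the coverage covariate, with or without that library. With the replicate block 8 genes, 0 members and 0 other pathway genes were called. That fit rests on numbers 1 to 3, and the numbers share no source that the labels name. The Insig1 over Insig2 difference was -1.28 in pairs 1 to 3 of the replicate block, a value with no test. With all libraries or with 1 left out, the exact test of a ratio adjusted over 3 ratios cannot pass 0.05 unless several ratios reach its smallest p. The cause of these shifts was not tested.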
